A study of Homo sapiens with 16 samples.

Results

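The comparison described here sets A549 cells given the solvent DMSO for 48 h against A549 cells given DMSO for 4 h, and so gives the baseline expression of these cells and its drift without compound. Its members are 4 of the 16 RNA libraries of the series, the 2 titled DMSO at 48 h and the 2 titled DMSO at 4 h, chosen by their titles and not by any measured value. A549 is an epithelial line from a human lung adenocarcinoma. The cells of every group made CD63-Nluc in excess, in which the tetraspanin CD63, found in exosome membranes, carries the luciferase Nluc as a reporter, and whether that line was 1 clone is not given in the sources used here. The labels print 4 µM for DMSO as they do for the compounds 5G6, 6D7 and 7F8, which the other 12 libraries received for 4 h or 48 h. The title of the series links exosome release to AMPK and SREBPs, and the description gives 2 biological replicates for each of the 8 groups. No group without DMSO is among the libraries, so time in DMSO and time in culture cannot be told apart.

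The control at 48 h is the level from which late effects of the compounds are read, and the control at 4 h is that for early effects. In most cells the adaptor KEAP1 sends the transcription factor NRF2 for degradation, and NRF2 escapes only under oxidative stress. In A549 cells KEAP1 is defective, and the line is known for lasting activity of NRF2 on genes of glutathione, thioredoxin, NADPH and iron handling.

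The 4 libraries held 6.61 to 7.84 aligned gigabases, within the 6.10 to 8.86 of the whole series. Levels are the deposited TPM (a level per transcript length) summed by gene name, without chromosome M, which took 22.5 to 31.0 percent of the deposited TPM in these libraries, and rescaled to the same sum in each library. Between 13626 and 14732 genes had a TPM of at least 1. The epithelial keratins KRT7, KRT8 and KRT18 were high, and the 6 epithelial markers summed to 7497 to 8081 TPM at 48 h and 8007 to 8157 TPM at 4 h. Those 3 keratins made up nearly all of the sum. Over the 4 libraries CDH1 stood at 12.1 to 51.6 TPM, EPCAM at 5.18 to 10.3 TPM and KRT19 at 36.1 to 80.7 TPM. The 3 mesenchymal markers, VIM above all, summed to 984 to 1212 TPM at 48 h and 872 to 1240 TPM at 4 h. Of 9 markers of alveolar type II cells, the lung cell that A549 is often taken to stand for, 3 passed the filter on low values, and SFTPA1, SFTPB and NKX2-1 were listed at 0 in all 4 libraries. The 5 fibroblast markers summed to 5.93 to 20.9 TPM at 48 h and 4.32 to 18.9 TPM at 4 h, the 4 leukocyte markers to 5.83 to 8.90 TPM at 48 h and 5.15 to 11.3 TPM at 4 h, and the 3 endothelial markers to at most 0.336 TPM in any of the 4. The fibroblast sums were nearly all COL1A1, and the leukocyte sums nearly all CD14.

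The most abundant RNAs of the baseline were those of iron storage, glycolysis, aldehyde and ketone detoxification, the cytoskeleton and the ribosome. The 15 genes with the highest mean level took 11.03 percent of TPM. FTL, the light chain of the iron-storing shell ferritin, stood at 13611 and 18194 TPM at 48 h, against 13931 and 20518 TPM at 4 h. FTH1, the ferritin heavy chain, which oxidizes iron, stood at 8439.9 and 9588 TPM at 48 h, against 8956 and 10333 TPM at 4 h. Replicate 2 was the higher library for both chains at both times, and the times overlapped for both. GAPDH, a glycolytic dehydrogenase, stood at 9707 and 10839 TPM at 48 h, against 8673 and 9609.9 TPM at 4 h, the 48 h libraries being slightly the higher. ALDH1A1, an aldehyde dehydrogenase that makes retinoic acid, stood at 7708 and 8882 TPM at 48 h, against 9235 and 6659 TPM at 4 h, with both 48 h libraries inside the range of the 4 h libraries. AKR1B10, an aldo-keto reductase that reduces aldehydes and retinal, stood at 5286 and 5611 TPM at 48 h, against 5622 and 6730.3 TPM at 4 h, the 4 h libraries being the higher by a small margin. The other 10 were the hair-type keratin KRT81, the actin-binding thymosins TMSB10 and TMSB4X, the calcium-binding protein S100A6, the actins ACTG1 and ACTB, the elongation factor EEF1A1 and the ribosomal proteins RPS16, RPL13A and RPS19. Over these 15 genes the highest of the 4 libraries exceeded the lowest by 1.22-fold to 1.61-fold.

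**Figure D1:**
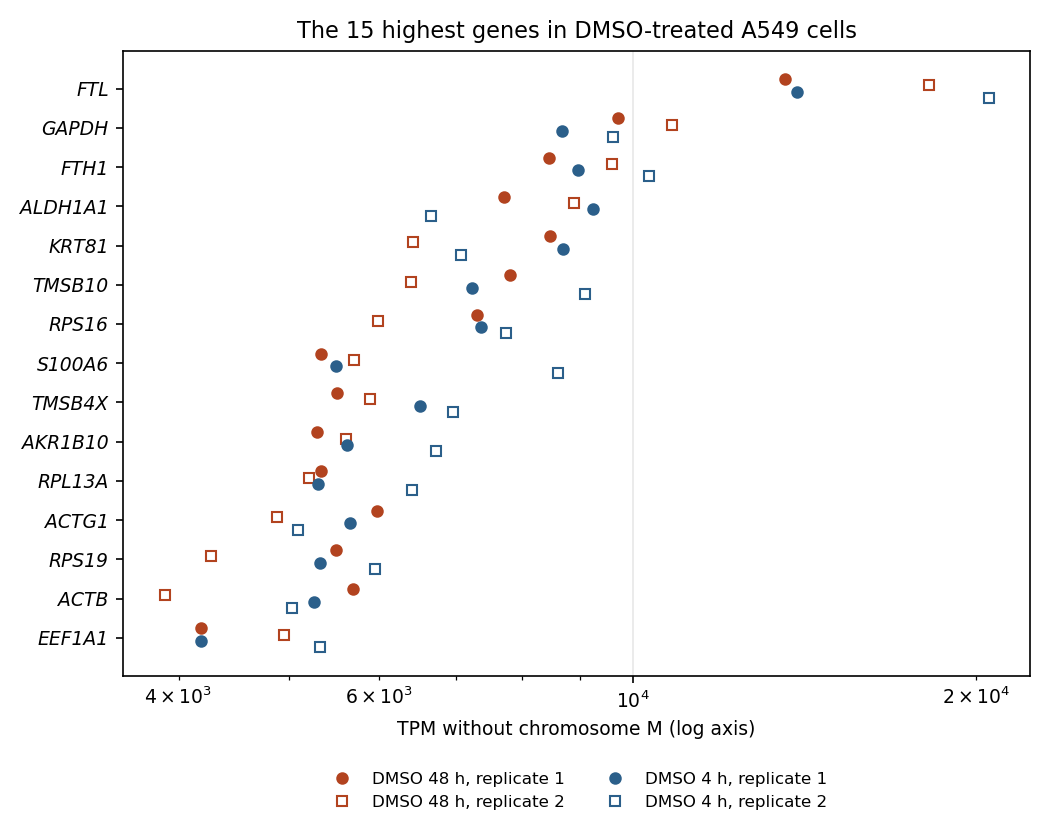
TPM without chromosome M (log axis) of the 15 highest genes in the 2 libraries of DMSO at 48 h (red) and the 2 of DMSO at 4 h (blue), circles for replicate 1 and open squares for replicate 2, 1 point per library. The 4 points of a gene lie within 1.61-fold of each other, and FTL stands above the other plotted genes in every library.

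Genes under NRF2 stood high beside the typical gene at both times. The 25 members of the NRF2 list had a median level of 328 TPM over the 4 libraries, and the median over all 15958 genes tested was 13.1 TPM. That height was not particular to NRF2 targets. The median was 339 TPM for the glycolysis list, 277 TPM for the housekeeping list and 57.8 TPM for the mitosis list. NQO1, a quinone reductase and a standard readout of NRF2, stood at 1627 and 1697 TPM at 48 h, against 1659.8 and 2057 TPM at 4 h. TXNRD1, which keeps thioredoxin reduced, stood at 974 and 884 TPM at 48 h, against 1036 and 1235 TPM at 4 h. The times overlapped for NQO1, and both 48 h libraries lay below both 4 h libraries for TXNRD1. PGD, which makes NADPH in the pentose phosphate pathway, stood at 1306 and 1726 TPM at 48 h, against 1485 and 1196 TPM at 4 h. GPX2, a glutathione peroxidase, stood at 461 and 555 TPM at 48 h, against 565 and 461 TPM at 4 h. ME1, the cytosolic malic enzyme and another source of NADPH, stood at 81.96 and 102 TPM at 48 h, against 90.8 and 87.4 TPM at 4 h. For PGD, GPX2 and ME1 the times overlapped. The aldo-keto reductase list, whose members include NRF2 targets, had a median level of 524 TPM over 9 members.

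NRF2 binds the antioxidant response element, whose core is TGACNNNGC. The 250 bases before the transcription start in the RefSeq promoter table (GRCh38.p14) were searched for that core on both strands, without any other motif. Of the 25 list members 17 had an entry, and 6 of them, 35.3 percent, held a match in at least 1 promoter, against 13.2 percent of 27305 genes in the table. The 4 stretches printed here, 5′ to 3′ on the strand of the gene, belong to members whose levels are given above and show where the core lies relative to the start. Capitals mark the core or its reverse complement. The stretches are chr12:104215529-104215778 (plus strand) for the first of the TXNRD1 starts, chr1:10398814-10399063 (plus strand) for PGD, chr14:64942746-64942995 (minus strand) for GPX2 and chr6:83431052-83431301 (minus strand) for ME1.
TXNRD1: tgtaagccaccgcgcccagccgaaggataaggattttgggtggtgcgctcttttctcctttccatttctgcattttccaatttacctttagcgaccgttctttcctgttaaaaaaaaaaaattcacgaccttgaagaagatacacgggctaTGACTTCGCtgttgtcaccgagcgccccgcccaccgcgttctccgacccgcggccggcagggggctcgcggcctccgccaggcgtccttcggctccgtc
PGD: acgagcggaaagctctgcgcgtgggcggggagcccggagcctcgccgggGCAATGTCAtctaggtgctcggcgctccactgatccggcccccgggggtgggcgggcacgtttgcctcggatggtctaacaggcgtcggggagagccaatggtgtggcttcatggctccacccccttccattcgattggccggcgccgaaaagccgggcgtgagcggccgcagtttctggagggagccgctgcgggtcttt
GPX2: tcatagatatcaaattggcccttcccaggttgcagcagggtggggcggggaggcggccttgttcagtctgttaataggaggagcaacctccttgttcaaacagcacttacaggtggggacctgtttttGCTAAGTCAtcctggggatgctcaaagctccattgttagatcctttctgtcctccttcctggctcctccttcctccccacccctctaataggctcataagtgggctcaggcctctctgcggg
ME1: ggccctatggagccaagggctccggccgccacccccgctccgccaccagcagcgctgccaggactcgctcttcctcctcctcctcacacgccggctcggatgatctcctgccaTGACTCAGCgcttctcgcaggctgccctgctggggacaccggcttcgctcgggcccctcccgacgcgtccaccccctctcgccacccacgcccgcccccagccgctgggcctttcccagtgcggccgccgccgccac
The core opens 99 bases before the TXNRD1 start, 201 before that of PGD, 122 before that of GPX2 and 137 before that of ME1, on the strand of the gene in TXNRD1 and ME1 and on the opposite strand in PGD and GPX2. A match describes the letters only, and binding was not measured.

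No gene passed the test between the 2 times once the spread between replicates was counted. The fit by limma took log2(TPM + 1) of the 16 libraries, 1 mean for each of the 8 groups, and genes were called at a Benjamini-Hochberg adjusted p below 0.05. Of 15958 genes 0 were called (0 percent), and the smallest adjusted p by limma was 0.944. An unadjusted p below 0.05 was reached by 375 genes (2.35 percent), 322 higher at 48 h (2.02 percent) and 53 lower (0.332 percent). That count moved with single libraries, being 108 without replicate 2 at 48 h, 134 without replicate 2 at 4 h, 778 without replicate 1 at 4 h and 983 without replicate 1 at 48 h. Adding 1 TPM before taking logs shrinks the log2 differences of low genes, and the p-values speak only of the spread among these samples. The 95% interval of the difference lay within 2-fold in either direction for 8999 genes (56.4 percent), and it reached a median of 0.67 log2 units to either side of the estimate. For the remaining genes a difference of 2-fold or more lay inside the interval and remained possible.

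The libraries themselves were about as far apart within a time as between times. The measure was the median absolute log2 difference over genes after median-of-ratios scaling, a scaling that sets the typical gene equal between libraries. Replicate 1 at 48 h and replicate 1 at 4 h were the closest pair of the 4 at 0.148, at rank 5 of the 120 pairs of the series, below the replicate pairs of the 8 groups, which lay at 0.265 to 0.383. The 2 libraries at 48 h lay 0.275 apart and the 2 at 4 h lay 0.265 apart. Replicate 2 at 48 h and replicate 2 at 4 h were the farthest at 0.350. The remaining pairs between times lay at 0.273 and 0.276. Over the whole series the pairs at ranks 1 to 10, at 0.125 to 0.226, all joined libraries of the same replicate number. The labels give no shared batch for these numbers, and the fit above did not account for them.

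**Figure D2:**
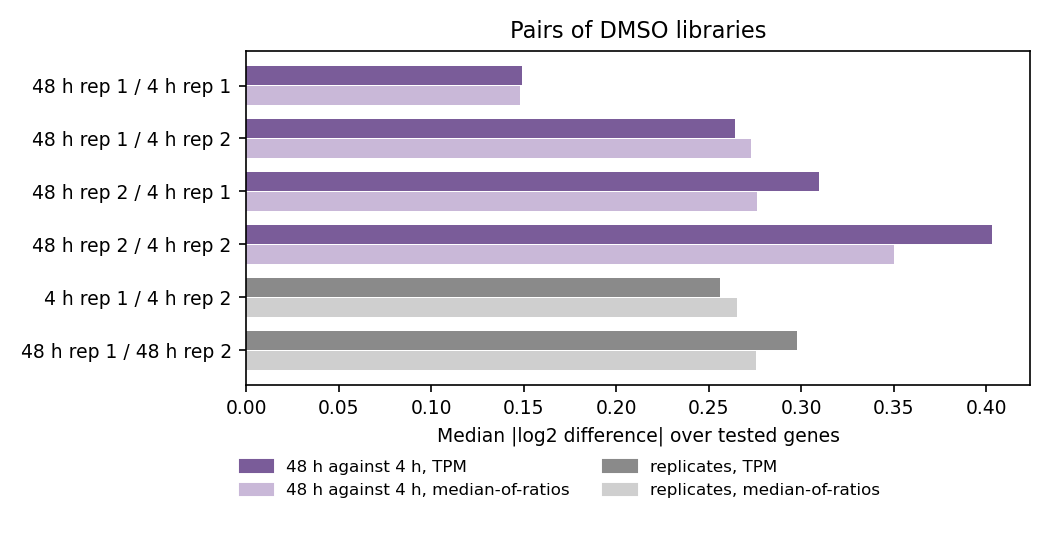
Median absolute log2 difference over the tested genes for each pair of DMSO libraries, pairs of a 48 h with a 4 h library above (purple) and replicate pairs of 1 time below (grey), dark bars on TPM and light bars after median-of-ratios scaling. After scaling the shortest bar, 0.148, and the longest, 0.350, both belong to pairs that join the times.

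On TPM, whose sum is the same in each library, the typical gene leaned toward 48 h, and counts of genes by direction have to be read against that. The median log2 difference over all genes was 0.17, and after median-of-ratios scaling it was 0.00. Both 48 h libraries lay above both 4 h libraries in 4557 genes (28.6 percent) and below both in 1143 (7.16 percent). After median-of-ratios scaling these counts were 2535 (15.9 percent) and 2588 (16.2 percent). Of the genes with an unadjusted p below 0.05, 149 were higher and 150 lower after that scaling. List medians are therefore given below as the median of the members minus the median of all genes.

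The fatty acid synthesis list lay farthest above the typical gene among the 36 lists with at least 5 tested members. Its 23 tested members had a median 0.43 log2 units above that of all genes. In 13 of them (56.5 percent, with 28.6 percent over all genes) both 48 h libraries lay above both 4 h libraries, while 0 had both below. After median-of-ratios scaling these counts were 12 and 1, with 15.9 and 16.2 percent over all genes. The median was 0.20 to 0.50 above that of all genes with 1 DMSO library left out, and no member was called. ELOVL6, which elongates palmitate, stood at 20.6 and 27.98 TPM at 48 h, against 11.9 and 15.3 TPM at 4 h, log2 difference 0.79 ± 0.29 (SE), with both 48 h libraries above both 4 h libraries (limma unadjusted p = 0.0203, adjusted p = 0.944). FADS1, a desaturase that introduces a double bond into polyunsaturated chains, stood at 297 and 319.6 TPM at 48 h, against 233 and 129 TPM at 4 h. ACLY, which makes cytosolic acetyl-CoA from citrate, stood at 418 and 474 TPM at 48 h, against 365 and 241 TPM at 4 h. FASN, the synthase that builds palmitate, stood at 129 and 154 TPM at 48 h, against 109 and 77.4 TPM at 4 h. For these 3 genes the 48 h libraries were again the higher, and the lowest value was that of replicate 2 at 4 h. SCD, the desaturase that makes oleate, stood at 523 and 1063 TPM at 48 h, against 524 and 342 TPM at 4 h, where replicate 2 at 48 h was high and replicate 1 was level between the times. Their log2 differences of 0.82, 0.58, 0.62 and 0.82 had limma adjusted p-values of 0.944.

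Sterol genes, which SREBP2 serves as SREBP1 serves the fatty acid genes, lay close to the typical gene. The 24 members of the sterol synthesis list had a median of -0.03 relative to all genes (0.082 without replicate 2 at 4 h and 0.034 without replicate 2 at 48 h), with both 48 h libraries above in 6 members (25.0 percent, against 28.6 percent over all genes) and below in 2 (8.33 percent, against 7.16 percent). INSIG1, the endoplasmic reticulum anchor that holds back SREBP, stood at 38.6 and 31.96 TPM at 48 h, against 29.2 and 49.1 TPM at 4 h. HMGCS1, an early enzyme of the pathway, stood at 62.9 and 48.2 TPM at 48 h, against 54.8 and 76.5 TPM at 4 h. In both genes replicate 2 at 4 h was the highest library and the times overlapped. SREBF2, the gene of SREBP2, stood at 60.9 and 79.1 TPM at 48 h, against 61.3 and 39.7 TPM at 4 h, with the times overlapping, since replicate 1 at 4 h slightly exceeded replicate 1 at 48 h.

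Genes of the extracellular matrix and of adhesion had a median above the typical gene at 48 h, without a call. The list of 27 tested members had a median 0.23 log2 units above that of all genes, and 13 members (48.1 percent, with 28.6 percent over all genes) had both 48 h libraries above both 4 h libraries while 0 had both below (8 and 0 after median-of-ratios scaling, with 15.9 percent of all genes above). With 1 library left out the median was 0.06 to 0.38 above, the lowest without replicate 2 at 48 h. LAMA5, a laminin chain of basement membranes, stood at 179 and 211 TPM at 48 h, against 159.7 and 78.5 TPM at 4 h, log2 difference 0.79 ± 0.37 (SE, limma adjusted p = 0.944). ITGA5, the integrin chain that binds fibronectin, stood at 24.9 and 57.00 TPM at 48 h, against 23.3 and 21.4 TPM at 4 h. Replicate 2 at 48 h was far above the other 3 libraries for ITGA5, and for LAMA5 replicate 2 at 4 h was far below them.

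Hypoxia targets showed the same uneven replicates. The list of hypoxia targets outside glycolysis had a median 0.26 log2 units above that of all genes over 21 members, yet 3 members (14.3 percent, with 28.6 percent over all genes) had both 48 h libraries above both 4 h libraries. Without replicate 2 at 48 h the median was -0.26 relative to all genes, so the sign rests on this library. EGLN3, an oxygen-sensing hydroxylase that hypoxia induces, stood at 5.67 and 46.03 TPM at 48 h, against 4.93 and 9.26 TPM at 4 h, and without replicate 2 at 48 h its log2 difference was -0.23 in place of 1.18. CA9, an acid-handling carbonic anhydrase, stood at 10.3 and 35.9 TPM at 48 h, against 8.30 and 14.3 TPM at 4 h, where replicate 2 at 48 h was again high. VEGFA, the vessel growth factor, stood at 31.9 and 39.2 TPM at 48 h, against 26.9 and 21.6 TPM at 4 h, the 48 h libraries being the higher in both replicates (log2 difference 0.54, limma adjusted p = 0.944).

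NRF2 targets had a median below the typical gene at 48 h, without a call. The list had a median of -0.27 relative to all genes. Both 48 h libraries lay below both 4 h libraries in 8 of 25 members, where the share over all genes was 7.16 percent, and above in 1. After median-of-ratios scaling these counts were 13 and 0, with 16.2 and 15.9 percent over all genes. With 1 library left out the median lay between -0.47 and -0.12. OSGIN1, an oxidative stress response gene that restrains growth (chr16:83953240-83966332, plus strand, GRCh38), stood at 85.4 and 45.3 TPM at 48 h, against 114 and 154 TPM at 4 h. Its log2 difference was -1.08 ± 0.35 (SE, 95% interval -1.85 to -0.31), with limma unadjusted p = 0.00987 and adjusted p = 0.944, and it was -0.63 without replicate 2 at 48 h and -1.53 without replicate 1 at 48 h. SRXN1, which repairs overoxidized peroxiredoxins, stood at 484 and 328 TPM at 48 h, against 537 and 623 TPM at 4 h. HMOX1, which breaks down haem, stood at 257 and 238 TPM at 48 h, against 459 and 312 TPM at 4 h. In OSGIN1, SRXN1 and HMOX1 both 48 h libraries were the lower, and replicate 2 at 48 h was the lowest of the 4. NQO1, given above, had overlapping times.

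**Figure D3:**
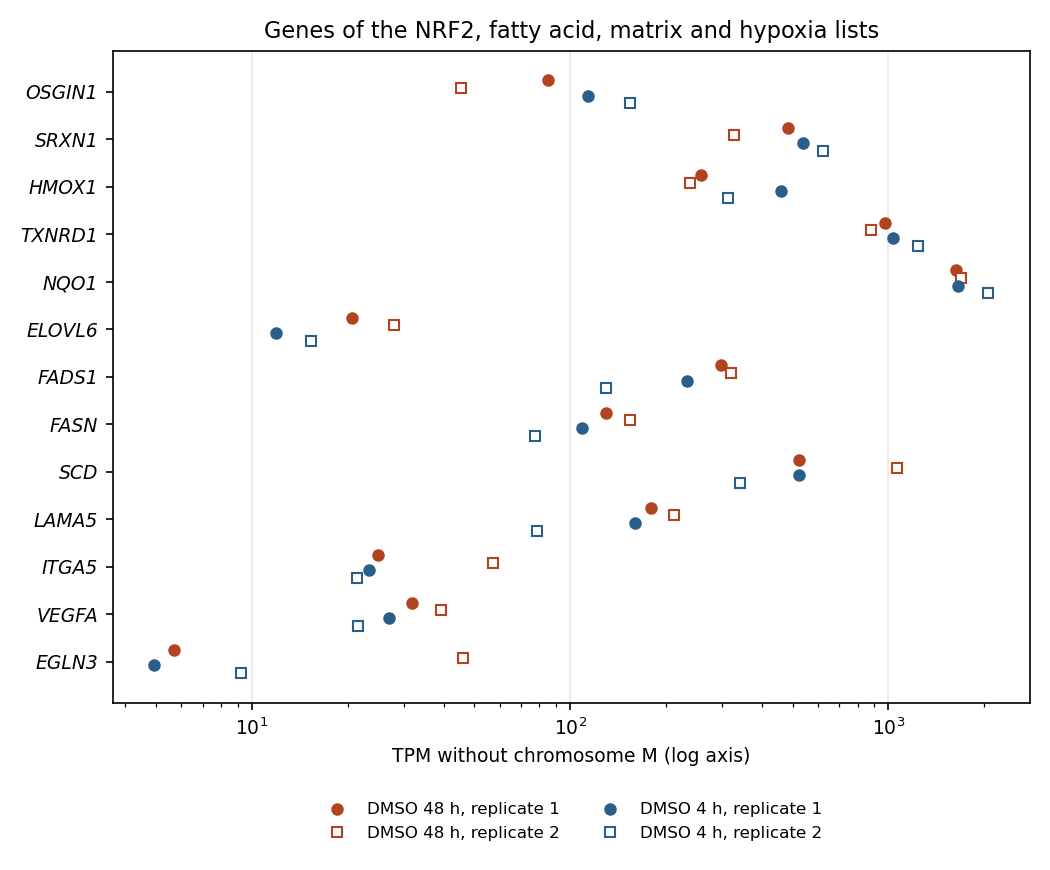
TPM without chromosome M (log axis) of 13 genes of the NRF2, fatty acid, matrix and hypoxia lists in the 2 libraries of DMSO at 48 h (red) and the 2 of DMSO at 4 h (blue), circles for replicate 1 and open squares for replicate 2. In OSGIN1 the 48 h libraries (85.4 and 45.3 TPM) lie left of the 4 h libraries (114 and 154 TPM), and in EGLN3 replicate 2 at 48 h (46.0 TPM) stands apart from the other 3.

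Aldo-keto reductases lay beside the NRF2 targets in direction. Their median was -0.32 relative to all genes, with both 48 h libraries below in 4 of 9 members (44.4 percent, with 7.16 percent over all genes) and above in 0. AKR1B1, aldose reductase, stood at 3866 and 3477 TPM at 48 h, against 4120.3 and 4044 TPM at 4 h, with both 48 h libraries the lower. AKR1C3, which reduces steroids and prostaglandins, stood at 3181 and 4249.8 TPM at 48 h, against 3926 and 4197 TPM at 4 h, with the times overlapping.

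Cytosolic ribosomal protein genes had the lowest relative median of the 36 lists, and nuclear genes of the respiratory chain lay near the aldo-keto reductases. The 46 cytosolic ribosomal protein genes had a median of -0.35 relative to all genes. Both 48 h libraries lay below both 4 h libraries in 25 (54.3 percent, with 7.16 percent over all genes) and above in 0. After median-of-ratios scaling these counts were 35 and 0, with 16.2 and 15.9 percent over all genes. With 1 library left out that median lay between -0.51 and -0.21. RPL37, of the large subunit, stood at 221 and 195 TPM at 48 h, against 275 and 316 TPM at 4 h, log2 difference -0.50 ± 0.18 (SE, limma adjusted p = 0.944). RPS13, of the small subunit, stood at 1937 and 1760.0 TPM at 48 h, against 2225 and 2256 TPM at 4 h. Both 48 h libraries were the lower for both genes. Many processed copies of ribosomal protein genes exist, and reads shared with them are uncertain. The 44 nuclear genes of the respiratory chain had a median of -0.31 relative to all genes. Both 48 h libraries lay below in 24 (54.5 percent, with 7.16 percent over all genes) and above in 0 (with 28.6 percent over all genes). After scaling these counts were 36 and 0, with 16.2 and 15.9 percent over all genes. NDUFS3, a core subunit of complex I, stood at 132 and 121 TPM at 48 h, against 165 and 161 TPM at 4 h. NDUFA2, an accessory subunit of the same complex, stood at 167 and 132 TPM at 48 h, against 188 and 206 TPM at 4 h. The times did not overlap for either gene, and neither was called.

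Cell cycle genes lay close to the typical gene in DMSO, those of mitosis slightly above it at 48 h. The 42 DNA replication genes had a median of -0.05 relative to all genes (0.14 without replicate 2 at 48 h), with both 48 h libraries above in 11 (26.2 percent, with 28.6 percent over all genes) and below in 0 (0 and 0 after median-of-ratios scaling). MCM6, a subunit of the replicative helicase, stood at 84.4 and 74.2 TPM at 48 h, against 75.2 and 71.8 TPM at 4 h, with the times overlapping. The 35 mitosis genes had a median 0.17 log2 units above that of all genes, and without replicate 1 at 4 h that median was -0.053. Both 48 h libraries lay above in 17 of them (48.6 percent, with 28.6 percent over all genes) and below in 0. After scaling these counts were 7 and 0, where 15.9 percent of all genes lay above and 16.2 percent below, so most of this separation was lost. In RNA of whole cultures fewer cells of a kind and less RNA per cell cannot be told apart. MKI67, a marker of cycling cells, stood at 69.2 and 71.4 TPM at 48 h, against 50.4 and 30.8 TPM at 4 h. TOP2A, the topoisomerase that untangles sister chromatids, stood at 251 and 289 TPM at 48 h, against 165 and 183 TPM at 4 h. Both 48 h libraries were the higher for MKI67 and TOP2A, with limma adjusted p-values of 0.944. The mitosis genes with the highest levels, UBE2C and PTTG1, had overlapping times. UBE2C stood at 287 and 245 TPM at 48 h, against 235 and 343 TPM at 4 h (log2 difference -0.10). PTTG1 stood at 217 and 239 TPM at 48 h, against 197 and 254 TPM at 4 h (log2 difference 0.03). CDKN1B, the inhibitor p27 of G1 kinases, stood at 48.7 and 66.1 TPM at 48 h, against 45.04 and 34.5 TPM at 4 h (limma unadjusted p = 0.0358, adjusted p = 0.944).

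The genes the study was about gave no call between the control times. CD63 stood at 1902 and 2054 TPM at 48 h, against 1697 and 1406 TPM at 4 h, with both 48 h libraries the higher, log2 difference 0.36 ± 0.24 (SE, 95% interval -0.16 to 0.87, limma adjusted p = 0.944). The tables do not say whether reads of the CD63-Nluc transgene count toward CD63. SDC1, a syndecan that takes part in exosome formation, stood at 195 and 236 TPM at 48 h, against 176 and 145 TPM at 4 h. In the list of 28 exosome and tetraspanin genes both 48 h libraries lay above both 4 h libraries in 8 (28.6 percent, the share over all genes) and below in 1, and after median-of-ratios scaling in 2 and 5. In that of 9 AMPK genes the counts were 3 and 0 on TPM, and 1 and 3 after scaling, where 15.9 percent of all genes lay above and 16.2 percent below. Neither list thus leaned one way under both scalings. PRKAA1, a catalytic subunit of AMPK, stood at 36.2 and 52.3 TPM at 48 h, against 34.8 and 34.1 TPM at 4 h. TXNIP, a glucose-responsive inhibitor of glucose uptake, stood at 1.37 and 5.35 TPM at 48 h, against 1.49 and 0.585 TPM at 4 h, where replicate 2 at 48 h was high and the other 3 libraries were low. Among the 28 chemokine and NF-kB genes 8 had both 48 h libraries above (28.6 percent, the share over all genes) and 1 both below, and after scaling 3 and 2. CXCL5, a chemokine that draws neutrophils, stood at 655 and 732 TPM at 48 h, against 523 and 530.2 TPM at 4 h. C3, the central complement protein, stood at 46.5 and 67.3 TPM at 48 h, against 34.8 and 20.6 TPM at 4 h (limma unadjusted p = 0.0339, adjusted p = 0.944). In SDC1, PRKAA1, CXCL5 and C3 both 48 h libraries were the higher. After scaling this held for SDC1, CXCL5 and C3, while PRKAA1 overlapped. Of the 17 acute-phase and complement genes, C3 among them, 2 had both 48 h libraries above (11.8 percent, with 28.6 percent over all genes). Both lay below in 1, and after scaling the counts were 2 and 3.

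The genes with the smallest p-values each way included some with close replicates and some listed at 0 in a library. TUBG2, a gamma-tubulin, stood at 21.4 and 27.6 TPM at 48 h, against 15.5 and 14.3 TPM at 4 h. LIPE, the hormone-sensitive lipase, stood at 5.25 and 6.24 TPM at 48 h, against 2.84 and 3.01 TPM at 4 h. FOXP4, a forkhead transcription factor, stood at 26.7 and 29.5 TPM at 48 h, against 17.3 and 13.1 TPM at 4 h. In these 3 genes the 48 h libraries were the higher, with log2 differences of 0.67, 0.78 and 0.85 and limma adjusted p-values of 0.944. PDRG1, a relative of the prefoldin chaperone subunits, stood at 31.5 and 27.4 TPM at 48 h, against 38.7 and 42.97 TPM at 4 h, with the 48 h libraries the lower.

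Among those listed at 0, RNF113A, a spliceosome-linked ubiquitin ligase (chrX:119870532-119871828, minus strand), was listed at 0 in both 48 h libraries and at 29.0 and 36.8 TPM in the 4 h libraries, and it was also listed at 0 in 1 of the 12 compound libraries. CLEC11A, a secreted lectin that acts as a growth factor (chr19:50723364-50725708, plus strand), was listed at 0 in both 48 h libraries and at 9.87 and 12.6 TPM in the 4 h libraries, and at 0 in 3 compound libraries. No other gene of the tables overlaps either one. SNURF and SNRPN, which share a locus on chromosome 15 and overlap, lay in opposite directions. SNURF stood at 23.98 and 39.00 TPM at 48 h, against 0.459 and 0 TPM at 4 h. SNRPN, a core splicing protein, stood at 34.5 and 10.2 TPM at 48 h, against 62.5 and 80.2 TPM at 4 h. Summed over both genes the locus held 58.5 and 49.2 TPM at 48 h, against 63.0 and 80.2 TPM at 4 h, a log2 difference of -0.40. DDX28, a mitochondrial RNA helicase that overlaps DUS2, stood at 0 and 12.4 TPM at 48 h, against 17.4 and 15.4 TPM at 4 h. What set these zeros was not tested.

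Fewer genes lay far apart between the times in DMSO than with any compound. At least a 2-fold difference between times was seen in 210 genes in DMSO (1.32 percent), against 1151 genes with 5G6 (7.21 percent), 1573 with 6D7 (9.86 percent) and 1819 with 7F8 (11.4 percent). These counts are descriptions without a test. The test asked, gene by gene in the same limma fit, whether the time difference in DMSO differed from the mean of the time differences with the 3 compounds, which share no library with it. It called 1 of 15958 genes (0.00627 percent), and 1629 genes (10.2 percent) had an unadjusted p below 0.05. The second smallest adjusted p was 0.155. These values are those of the fit without a replicate block. With such a block, for which the labels give no shared batch, more genes were called, as given in the closing section.

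The called gene was DDC, aromatic L-amino acid decarboxylase, which makes dopamine from L-DOPA and serotonin from its precursor (chr7:50458436-50565460, minus strand, overlapping the antisense gene DDC-AS1). It stood at 9.95 and 8.40 TPM at 48 h, against 6.93 and 6.40 TPM at 4 h, with both 48 h libraries slightly the higher. With the compounds it stood at 0.236 to 1.26 TPM in the 6 libraries at 48 h, against 5.07 to 7.53 TPM in the 6 libraries at 4 h, without overlap. Its log2 difference between times was 0.41 in DMSO (95% interval -0.08 to 0.89), against -1.85 with 5G6, -2.01 with 6D7 and -2.24 with 7F8. The difference between these differences was 2.44 ± 0.26 (SE, 95% interval 1.88 to 3.002, limma adjusted p = 0.0120). The call was lost without replicate 1 at 48 h (adjusted p = 0.110), without replicate 1 at 4 h (0.152), without replicate 2 at 4 h (0.222) and with a filter of TPM at least 5 (0.0594), with estimates of 2.33 to 2.55 whichever DMSO library was left out. Strandedness of the libraries is not given in the sources used here, so reads of DDC and DDC-AS1 cannot be told apart.

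**Figure D4:**
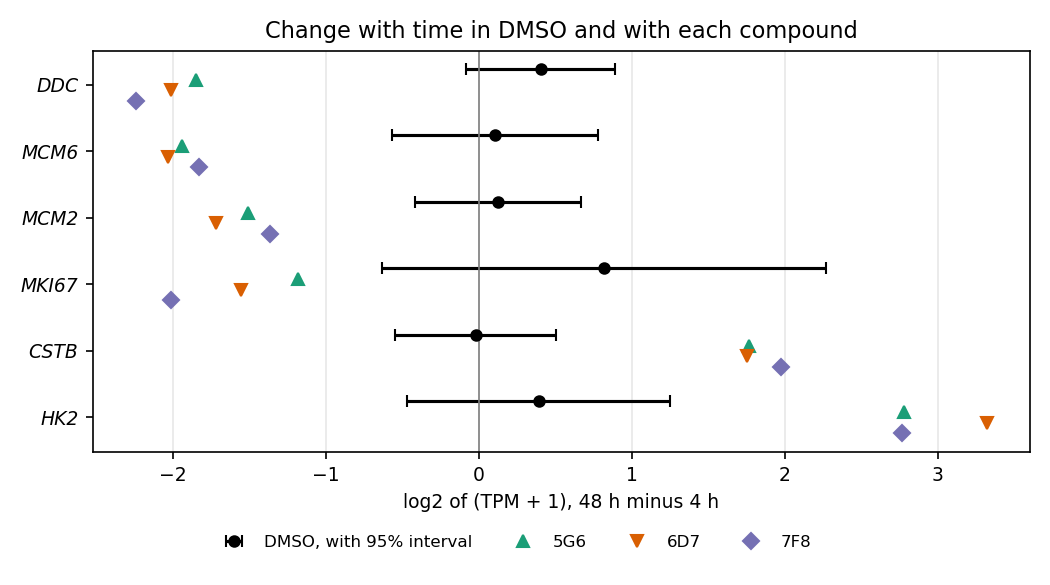
Log2 of (TPM + 1) at 48 h minus 4 h for 6 genes, in DMSO (black circles, bars for the 95% interval of the limma fit) and with 5G6, 6D7 and 7F8 (coloured symbols, no interval drawn), 2 libraries per time and treatment. In DDC and MCM6 the DMSO value (0.41 and 0.11) lies right of the compounds and in CSTB and HK2 (-0.02 and 0.39) left of them. Among the 6 genes only the difference of DDC was called in the fit without a replicate block.

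The 4 genes CSTB, HK2, MCM6 and MCM2 were among the genes that shared the second smallest adjusted p, as was MCM7. They were picked from that larger tied group after their values were seen, and its other members are not given here. They did not pass the adjustment in the fit without a replicate block. They were not the next largest in size, since the difference was 2.40 for MKI67 and -6.08 for RNF113A, neither of them called. CSTB, an inhibitor of lysosomal cathepsins, stood at 285 and 279 TPM at 48 h, against 258 and 316 TPM at 4 h in DMSO, and at 1037 to 1895 TPM at 48 h, against 345 to 458 TPM at 4 h, with the compounds. HK2, a hexokinase, stood at 1.00 and 2.66 TPM at 48 h, against 0.862 and 1.28 TPM at 4 h in DMSO, and at 6.33 to 33.6 TPM at 48 h, against 0.312 to 2.05 TPM at 4 h, with the compounds. MCM6, given for DMSO above, stood at 9.65 to 20.4 TPM at 48 h, against 43.7 to 74.3 TPM at 4 h, with the compounds. MCM2, of the same helicase, stood at 71.4 and 56.8 TPM at 48 h, against 64.7 and 52.3 TPM at 4 h in DMSO, and at 13.2 to 22.3 TPM at 48 h, against 36.02 to 70.7 TPM at 4 h, with the compounds. In all 4 the compound libraries of the 2 times did not overlap, and the limma adjusted p of the difference from DMSO was 0.155.

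Of the 11 lists plotted, those of the cell cycle showed the largest gaps between DMSO and the compounds. The DNA replication median relative to all genes was -0.05 in DMSO, against -1.35 with 5G6, -1.82 with 6D7 and -1.61 with 7F8, and 40 of its 42 members had an unadjusted p below 0.05 for the difference, where the share over all genes was 10.2 percent. The mitosis median was 0.17 in DMSO, against -1.003, -1.99 and -2.16 with 5G6, 6D7 and 7F8, with 28 of 35 members at an unadjusted p below 0.05. The sterol median was -0.03 in DMSO, against 0.83, 0.999 and 0.74 with the same compounds, with 3 of 24 such members. The fatty acid median was 0.43 in DMSO, against 0.68, 0.83 and 0.66, with 4 of 23 such members, and the NRF2 median was -0.27 in DMSO, against -0.38, -0.64 and -0.65, with 5 of 25. The fatty acid and NRF2 medians had the same sign in DMSO and with each compound. These medians compare times within a treatment and leave out differences between treatments already present at 4 h. At 4 h FASN stood at 436 and 319 TPM with 5G6, 231 and 106 TPM with 6D7 and 92.7 and 65.9 TPM with 7F8, against 109 and 77.4 TPM in DMSO. In the fit without a replicate block 0 members of any of the 5 lists were called.

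**Figure D5:**
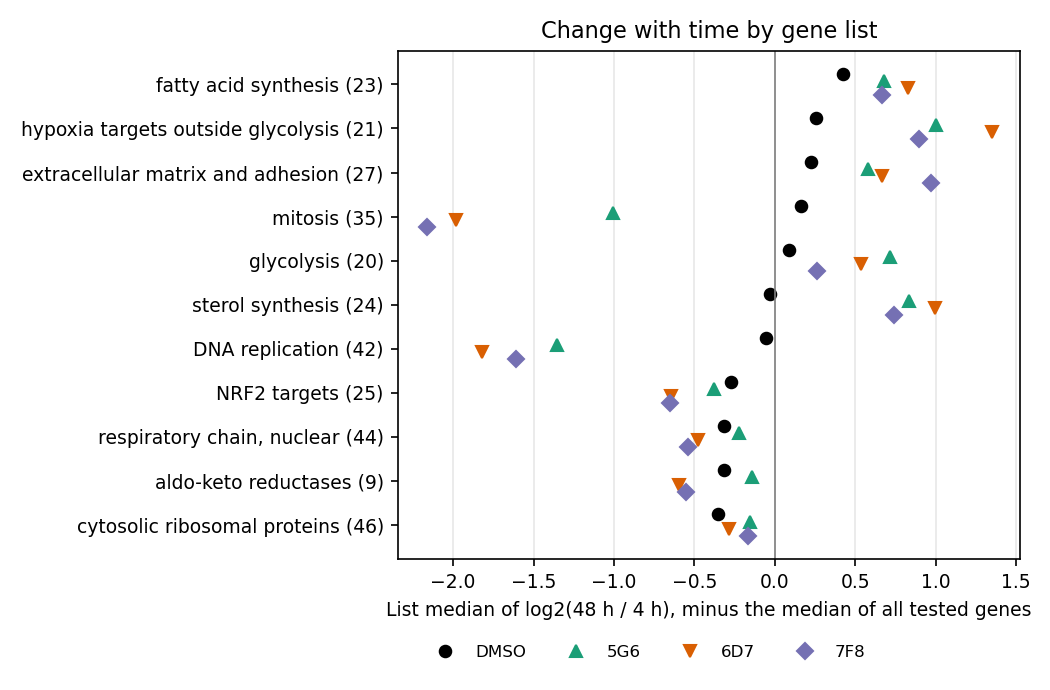
Median log2 difference between 48 h and 4 h over the tested members of 11 gene lists (number of members in brackets), minus the median of all tested genes, in DMSO (black circles) and with 5G6, 6D7 and 7F8 (coloured symbols). DMSO lies between -0.35 for cytosolic ribosomal proteins and 0.43 for fatty acid synthesis, and the compounds reach -2.16 for mitosis and 1.35 for hypoxia targets.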

How the data were processed

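Per the labels' protocols, polyA RNA libraries came from 1 µg of TRIzol-extracted RNA, after DNase I, with a NEBNext Ultra kit. The submitters' processing notes name STAR 2.6.1a, featureCounts 1.6.3, StringTie 2.0 and GRCh38, without role or order. The authors deposited 1 gene abundance table per library, with TPM scaled to a fixed sum, FPKM values and a mean read coverage, per the file headers. FPKM and coverage served here only for the aligned bases and as an alternative. Whether the replicates came from separate cultures beyond the description's word is not given. TPM was summed by gene name, chromosome M dropped, and the rest rescaled to the same sum. Genes reaching a TPM of 1 in 2 or more libraries, 15958 in number, were fitted with limma 3.58.1 (R 4.3.3) on log2(TPM + 1), with 8 residual degrees of freedom, a mean-variance trend and two-sided tests. In data simulated for this comparison the fit called 35 of 100 genes changed 2-fold and 80 of 100 changed 4-fold, with 5 false among 120 calls over 15958 genes. The members and the 39 lists (929 genes) were chosen with earlier results of these data known. Named genes were, by rule, the 15 highest, those with the smallest p each way (12), 2 of each list by p and 2 by level, called differences from the compounds, and genes fixed by name. The text prints a part of them, and TXNRD1, PGD, GPX2, ME1, FADS1, ACLY, ITGA5, EGLN3, AKR1B1, MCM2, MCM6, TOP2A, CSTB and HK2, outside that rule, were chosen after their values were seen. Tables were read with Python 3.11.15 and pandas 2.3.3, and figures drawn with matplotlib 3.10.9.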

Additional observations from a re-analysis of the deposited data

Results flagged for a closer look

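The change with time of DDC differed between DMSO and the compounds. Its log2 difference between 48 h and 4 h was 0.41 in DMSO, against -1.85, -2.01 and -2.24 with 5G6, 6D7 and 7F8, and the difference between DMSO and the mean of the compounds was 2.44 (limma adjusted p = 0.0120, over 15958 genes). The call was lost with a filter of TPM at least 5 and with some single DMSO libraries left out, as given with the gene above. Groups of 2 libraries are too small for a check of single outlying samples.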

How the results depend on the processing

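The count of genes called between 48 h and 4 h was 6 of 26156 without a filter on low values, and 0 to 1 with any 1 DMSO library left out (SERF2-C15ORF63 without replicate 1 at 48 h, DDX28 without replicate 2 at 48 h). It was 0 under the remaining alternatives. The count at an unadjusted p below 0.05 was 780 without a filter, 213 with a filter of TPM at least 5, and 108 to 983 with 1 library left out (983 without replicate 1 at 48 h, 108 without replicate 2 at 48 h, 778 without replicate 1 and 134 without replicate 2 at 4 h). With chromosome M kept it split into 178 higher and 72 lower. A replicate block, for which the labels give no shared batch, moved it to 718, and to 591 with median-of-ratios scaling as well. The deviations of same-numbered DMSO libraries correlated at 0.185, and over 28 pairs of groups 25 correlations were above 0.1 (range 0.0536 to 0.588). The difference between DMSO and the compounds had 3 calls with chromosome M kept, 8 without a filter, 0 with a filter of TPM at least 5, 269 with the replicate block (213 higher, 56 lower), 92 with the block and median-of-ratios scaling (61 higher, 31 lower), and 0 to 3 with 1 library left out. The cause of these moves was not tested.

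Signs turned only where values lay near 0 or 1 library carried them. MCM2 and MCM6 were at -0.074 and -0.095 after median-of-ratios scaling, with or without the block. Without a filter the relative medians of DNA replication and sterol synthesis were 0.056 and 0.080. With 1 library left out, log2 differences ran between -0.31 and 0.0017 for NQO1, -0.23 and 2.59 for EGLN3, -0.47 and 0.26 for INSIG1, -0.47 and 0.0068 for HMGCS1, and -0.035 and 0.29 for MCM2. Relative medians ran between -0.053 and 0.36 for mitosis, -0.26 and 0.60 for hypoxia targets, -0.011 and 0.20 for glycolysis, -0.24 and 0.14 for DNA replication, and -0.20 and 0.082 for sterol synthesis. Of 807 such values for 58 genes and lists, 777 kept direction and side of the threshold, 20 turned sign, 4 lost the call (those of DDC given above) and 6 gained one (MCM6, CSTB and HK2 against the compounds, with the replicate block). The filter of TPM at least 5, the block with scaling, and coverage in place of TPM were added after seeing the data. Depth is known only as aligned bases, so counting error per gene could not be given.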
